A study of Glycine max with 12 samples.

Results

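The 4 loci that the study names NRT1.5, Glyma.05G070600, Glyma.17G153300, Glyma.09G237600 and Glyma.18G260000, were taken from the 52660 loci of a leaf RNA-seq count table. All 4 were among the 39443 loci that passed the filter on low counts. They were chosen from the study's senescence-related genes called in GmNAC81-3 V3 leaves against BR16 V3 leaves, so that contrast is described here without a test. By their names in the Wm82.a2.v1 assembly the loci lie on chromosomes 5, 17, 9 and 18, and positions within the chromosomes were not used here. Glyma.05G070600 had 2 transcript models and the other 3 loci had 1 each. The similarity of the loci to each other was not checked, and the counting of reads shared by near-identical copies is not given in the sources used here, so a split of reads among them cannot be told apart from their own levels.

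NRT1.5 is a nitrate transporter of the plasma membrane and belongs to the NRT1/PTR family of peptide and nitrate carriers. In Arabidopsis, where it is best known, it loads nitrate into the xylem of the root, its activity is tied to potassium transport, and its transcript has been linked to leaf senescence, the stage at which a leaf exports its nitrogen. Soybean is a palaeopolyploid and often keeps several copies of a gene, so a transporter described by one name may be encoded at several loci.

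The libraries came from the third leaf of soybean (Glycine max), with 3 plants, and so 3 replicates, in each of 4 groups: GmNAC81-3 at R6 (80 days after germination), BR16 at R6, GmNAC81-3 at V3 (20 days) and BR16 at V3. BR16 is a soybean cultivar, here untransformed, and GmNAC81-3 is one transgenic line of it that carries the transcription factor gene GmNAC81 under the 35S promoter, which is active in most tissues. V3 is a vegetative stage and R6 a reproductive stage with full seeds in the pods, and all plants grew under normal conditions. Each stage had its own sequencing set, so leaf age and set cannot be told apart, whereas the genotypes were compared within a set. A second line, GmNAC81-1, was not analysed here. In whole leaves, fewer cells of a type and less RNA per cell cannot be told apart.

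The only NRT1.5 sequences at hand are the study's RT-qPCR primers, which are shown because they are the part of the transcript that the study measured outside the sequencing. Each has 20 bases, written 5′ to 3′ in lower case with no part marked. The primer list names only NRT1.5, and the study's table of the genes selected for RT-qPCR gives Glyma.09G237600 for it. A match of the primers to the transcripts of the 4 loci was not made here.
qRTGmNRT1.5Fwd: aatgcacaaacacctgatgg
qRTGmNRT1.5Rv: atccatcctggcatctcatc

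The libraries held 42797825 to 77952663 counts each. In CPM (counts relative to the size of the library after scaling by edgeR's TMM factors, a correction for libraries dominated by few genes), GmNAC81 (Glyma.12G022700) had 81.9, 184 and 33.4 in the GmNAC81-3 V3 libraries, against 3.58, 6.45 and 7.26 in the BR16 V3 libraries, as the labels would have it. At R6 its libraries overlapped, with 46.6, 53.5 and 69.1 CPM in GmNAC81-3, against 60.7, 11.3 and 41.9 CPM in BR16. The GmNAC81-3 V3 libraries stood apart in scaling. Their TMM factors were 0.498 to 0.657, against 0.931 to 1.45 in the other 9 libraries, and their 3 most abundant loci took 51.3% ± 7.19 of the counts (SD, n = 3), against 35.5% ± 3.19 in BR16 V3 (SD, n = 3). This share overlapped with that at R6, which was 45.4% ± 7.97 in GmNAC81-3 R6 and 41.1% ± 5.60 in BR16 R6 (SD, n = 3 each). Rubisco activase, an enzyme of photosynthesis and a mark of green leaf, was abundant at V3. Of its 3 loci examined, Glyma.11G221000, the highest at V3, had means of 208 CPM in GmNAC81-3 R6, 248 in BR16 R6, 8275 in GmNAC81-3 V3 and 3882 in BR16 V3. At the lowest, Glyma.14G067000, the means were 40.1, 39.0, 471 and 265 CPM in the same order. The V3 difference between the genotypes depended on the scaling. In CPM without a scaling factor, the V3 means of Glyma.11G221000 were 4664 in GmNAC81-3 and 4372 in BR16. Those of Glyma.14G067000 were 265 in GmNAC81-3 and 305 in BR16. The part of this composition in the NRT1.5 values was not tested beyond the change of scaling given with the V3 contrast.

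The 4 NRT1.5 loci fell into 2 pairs. Glyma.05G070600 and Glyma.17G153300 had their highest levels in young leaves and were called lower at R6 in both genotypes, by 15.1-fold and 5.65-fold in GmNAC81-3 and by 7.94-fold and 3.07-fold in BR16. Of all tested loci, 20.1% were called lower at R6 in GmNAC81-3 and 19.6% in BR16, where 15.1% were called higher. Glyma.18G260000 was higher at R6 in BR16, by 3.84-fold, and Glyma.09G237600 was nearly silent in BR16 V3 leaves and present in every R6 leaf. Neither Glyma.18G260000 nor Glyma.09G237600 was called in GmNAC81-3 R6 against GmNAC81-3 V3. Between the genotypes none of the 4 was called at R6, where 0.0989% of all tested loci were. The plot of the 4 loci by library shows each value.

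**Figure D1:**
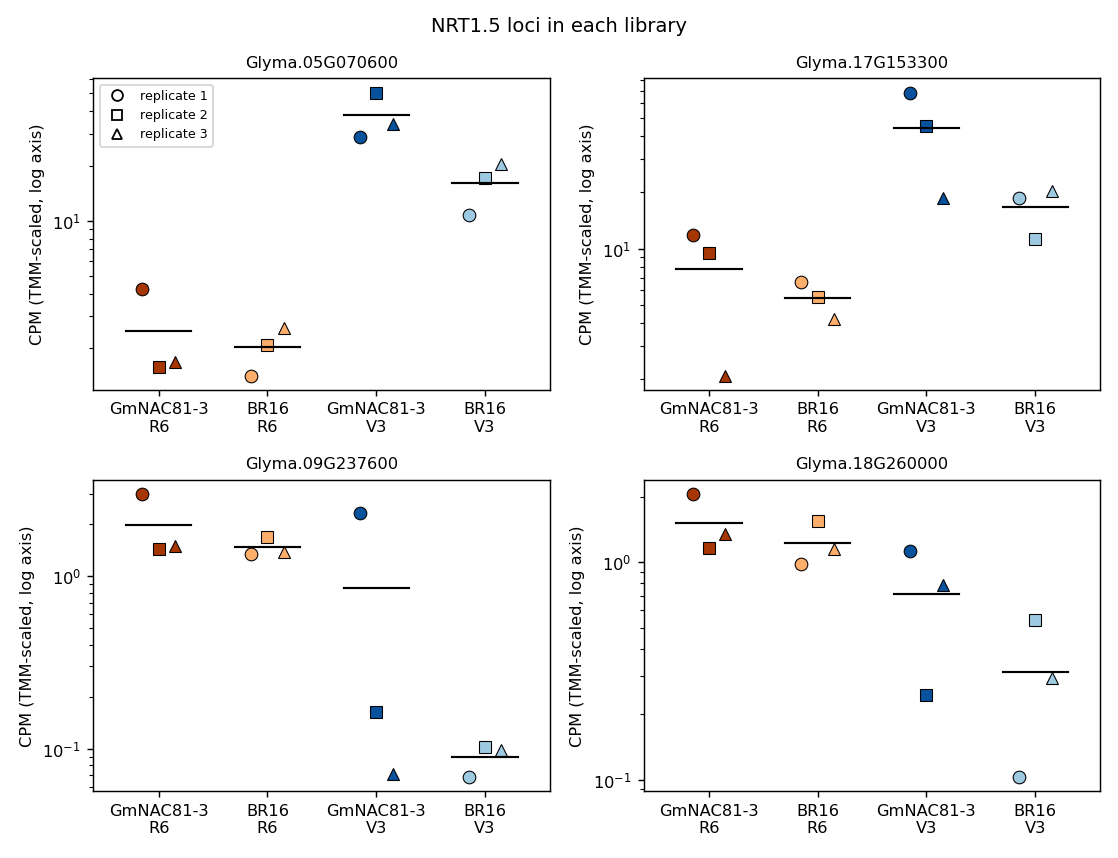
CPM (TMM-scaled, log axis) of the 4 NRT1.5 loci in the 12 libraries, by group, with circles, squares and triangles for replicates 1, 2 and 3 and a line at the group mean. The upper pair is low at R6 and the lower pair low at V3, where 1 GmNAC81-3 library of Glyma.09G237600 (2.31 CPM) stands at the R6 level.

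Glyma.05G070600 had 255, 150 and 106 counts in the GmNAC81-3 R6 libraries and 160, 153 and 224 counts in the BR16 R6 libraries, against 877, 1242 and 955 counts in GmNAC81-3 V3 and 627, 1334 and 1250 counts in BR16 V3. In CPM these were 4.22, 1.59 and 1.69 in GmNAC81-3 R6, 1.42, 2.09 and 2.58 in BR16 R6, 29.0, 50.5 and 34.0 in GmNAC81-3 V3 and 10.7, 17.2 and 20.4 in BR16 V3. Every R6 library lay below every V3 library. The group means were 2.50 ± 1.49 CPM in GmNAC81-3 R6, 2.03 ± 0.584 in BR16 R6, 37.8 ± 11.3 in GmNAC81-3 V3 and 16.1 ± 4.95 in BR16 V3 (SD, n = 3 each).

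The stage contrast of Glyma.05G070600 was a log2 fold change of -3.92 (SE 0.44) in GmNAC81-3 (adjusted p = 3.94e-05, edgeR's quasi-likelihood test, Benjamini-Hochberg over all tested loci). In BR16 it was -2.99 (SE 0.43, edgeR quasi-likelihood with Benjamini-Hochberg, adjusted p = 0.000218). Calls required both an adjusted p below 0.05 and a change beyond 1 in size on the log2 scale, and these 2 held in each alternative and with each library left out. The choice of the loci on the V3 contrast favoured the fall in GmNAC81-3 and not that in BR16.

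Its 2 transcript models behaved alike. The first model took 58.2% ± 6.08 of the locus's counts in GmNAC81-3 R6, 56.7% ± 4.01 in BR16 R6, 52.3% ± 2.56 in GmNAC81-3 V3 and 51.8% ± 3.38 in BR16 V3 (SD, n = 3 each). The ranges of the groups overlapped, and each model fitted on its own was called lower at R6 in both genotypes.

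Glyma.17G153300 had 712, 895 and 131 counts in GmNAC81-3 R6 and 747, 404 and 362 counts in BR16 R6, against 2067, 1119 and 521 counts in GmNAC81-3 V3 and 1088, 877 and 1245 counts in BR16 V3. In CPM it reached 11.8, 9.50 and 2.09 in GmNAC81-3 R6, 6.63, 5.51 and 4.18 in BR16 R6, 68.3, 45.5 and 18.5 in GmNAC81-3 V3 and 18.6, 11.3 and 20.4 in BR16 V3. Within each genotype the R6 libraries lay below the V3 libraries, but the highest GmNAC81-3 R6 library (11.8 CPM) exceeded the lowest BR16 V3 library (11.3 CPM). Libraries of GmNAC81-3 varied more than those of BR16 at both stages, with means of 7.79 ± 5.07 CPM against 5.44 ± 1.23 at R6 and 44.1 ± 24.9 CPM against 16.7 ± 4.81 at V3 (SD, n = 3 each).

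The stage contrast of Glyma.17G153300 was -2.50 (SE 0.59) in GmNAC81-3 (edgeR quasi-likelihood with Benjamini-Hochberg, adjusted p = 0.00495). In BR16 it was -1.62 (SE 0.57, edgeR quasi-likelihood with Benjamini-Hochberg, adjusted p = 0.0383). The call in BR16 was the least stable of the stage calls. It was lost without BR16 V3 replicate 1 (adjusted p = 0.0827), BR16 V3 replicate 3 (0.101), BR16 R6 replicate 1 (0.0679), BR16 R6 replicate 2 (0.0896), BR16 R6 replicate 3 (0.121) and likewise GmNAC81-3 V3 replicate 2 (0.0513), while the log2 fold change stayed between -1.84 and -1.45 (edgeR quasi-likelihood with Benjamini-Hochberg). With total counts in place of TMM it was -1.41 (edgeR quasi-likelihood with Benjamini-Hochberg, adjusted p = 0.0522). Here too the choice of the loci favoured the fall in GmNAC81-3 and not that in BR16.

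Glyma.09G237600 had 180, 136 and 94 counts in GmNAC81-3 R6 and 152, 124 and 120 counts in BR16 R6, against 70, 4 and 2 counts in GmNAC81-3 V3 and 4, 8 and 6 counts in BR16 V3. In CPM it stood at 2.98, 1.44 and 1.502 in GmNAC81-3 R6, 1.35, 1.69 and 1.38 in BR16 R6, 2.31, 0.163 and 0.0712 in GmNAC81-3 V3 and 0.0683, 0.103 and 0.0981 in BR16 V3. The 6 R6 libraries and GmNAC81-3 V3 replicate 1 formed the high values, and the other 5 V3 libraries held 8 counts or fewer. A floor of 3 counts corresponds to 0.0266 to 0.122 CPM over the libraries, so that the low V3 values are at or near the limit of detection.

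In BR16 the R6 libraries of Glyma.09G237600 did not overlap with the V3 libraries, and the fitted log2 fold change was 3.996 (SE 0.95), a 16.0-fold difference, with means of 1.47 ± 0.187 CPM at R6 and 0.0898 ± 0.0188 CPM at V3 (SD, n = 3 each). The study shows this locus for its change in this contrast, so the value is given without a test. In GmNAC81-3 the log2 fold change was 1.19 (SE 0.81, edgeR quasi-likelihood with Benjamini-Hochberg, adjusted p = 0.251), and the libraries of both stages overlapped through the single library with 70 counts. Without GmNAC81-3 V3 replicate 1 the stage contrast in GmNAC81-3 was 4.09 (edgeR quasi-likelihood with Benjamini-Hochberg, adjusted p = 0.000151).

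At this locus GmNAC81-3 V3 replicate 1 stood at the R6 level. Its 2.31 CPM has a 95% counting interval (exact Clopper-Pearson on fragments) of 1.61 to 3.21 CPM, against 0.0197 to 0.587 and 0.0018 to 0.396 CPM in the other GmNAC81-3 V3 libraries. At 412 loci, Glyma.09G237600 among them, every BR16 R6 library lay more than 10-fold above every BR16 V3 library. GmNAC81-3 V3 replicates 1, 2 and 3 each reached the lowest BR16 R6 library at 3 of these 412 loci (0.728%), of which each replicate did so alone at 2. Those that replicate 1 reached alone include Glyma.09G237600 itself. The correlation of the log2 CPM of replicate 1 with the BR16 R6 mean over all tested loci was 0.730. It was 0.743 and 0.718 in GmNAC81-3 V3 replicates 2 and 3, and 0.710, 0.781 and 0.761 in the BR16 V3 libraries. At Glyma.18G260000 replicate 1 also had the highest V3 value, 1.12 CPM, above the 0.977 CPM of BR16 R6 replicate 1. These measures were chosen after seeing the counts of this locus, and the age of that leaf was not tested.

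Nor did Glyma.09G237600 follow the level of GmNAC81, the endogenous gene and the transgene counted together, among the GmNAC81-3 V3 plants. GmNAC81-3 V3 replicate 2 had the most GmNAC81 (184 CPM) and 4 counts of Glyma.09G237600, whereas replicate 1 had 81.9 CPM of GmNAC81 and 70 counts. With 3 plants this is a description only. The study reports from RT-qPCR that this transporter gene was induced in young leaves of its transgenic lines, more so where the transgene was more expressed. That comparison is between lines, whereas the values here come from plants within a line, so they do not bear on it. The plot of both genes shows the 12 libraries.

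**Figure D2:**
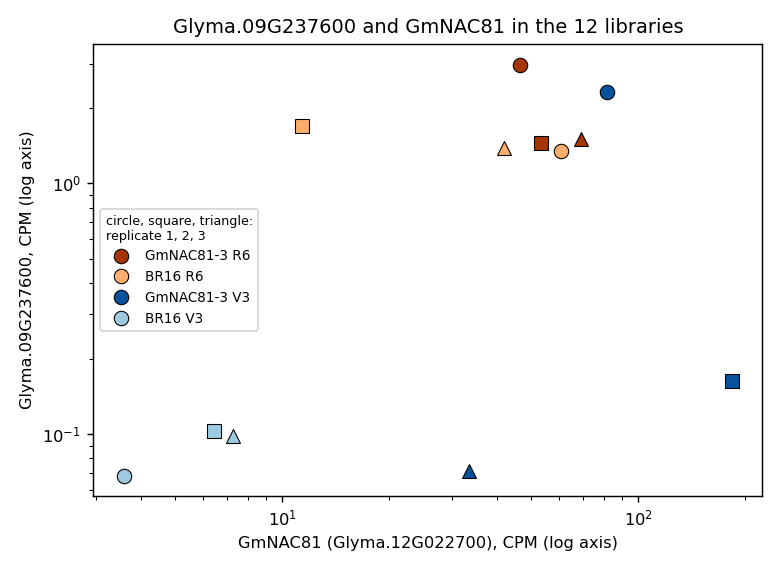
CPM of Glyma.09G237600 (vertical, log axis) against CPM of GmNAC81 (horizontal, log axis) in the 12 libraries, coloured by group, with the replicate given by the symbol. The 6 R6 libraries and GmNAC81-3 V3 replicate 1 lie between 1.35 and 2.98 CPM of Glyma.09G237600, and GmNAC81-3 V3 replicate 2, with the most GmNAC81 (184 CPM), lies at 0.163 CPM.

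Glyma.18G260000 had 124, 110 and 84 counts in GmNAC81-3 R6 and 110, 114 and 100 counts in BR16 R6, against 34, 6 and 22 counts in GmNAC81-3 V3 and 6, 42 and 18 counts in BR16 V3. In CPM these were 2.05, 1.17 and 1.34 in GmNAC81-3 R6, 0.977, 1.55 and 1.15 in BR16 R6, 1.12, 0.244 and 0.783 in GmNAC81-3 V3 and 0.102, 0.540 and 0.294 in BR16 V3. The R6 libraries lay above the V3 libraries within each genotype. The nearest values were 1.17 CPM at R6 and 1.12 CPM at V3 in GmNAC81-3.

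Glyma.18G260000 was called higher at R6 in BR16, with a log2 fold change of 1.94 (SE 0.56, edgeR quasi-likelihood with Benjamini-Hochberg, adjusted p = 0.0152). The call was lost without BR16 V3 replicate 3 (edgeR quasi-likelihood with Benjamini-Hochberg, adjusted p = 0.0509). In GmNAC81-3 the log2 fold change was 1.06 (SE 0.56, edgeR quasi-likelihood with Benjamini-Hochberg, adjusted p = 0.140), which was not called, although the libraries did not overlap.

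Counted over the loci, 2 of 4 were called in GmNAC81-3 R6 against GmNAC81-3 V3, both lower, where 20.1% of all tested loci were called lower and 16.5% higher. The libraries did not overlap at 3 of the 4, against 52.2% of all tested loci. In BR16 R6 against BR16 V3, 2 of the 3 loci tested were called lower and 1 higher, where 19.6% of all tested loci were called lower and 15.1% higher. The libraries did not overlap at these 3, against 60.2% of all tested loci, and Glyma.09G237600 is left out of both counts because its change in BR16 is among the reasons for its choice. Both contrasts share V3 libraries with the contrast on which the loci were chosen. The choice thus favoured a high GmNAC81-3 V3 level and a low BR16 V3 level. With them it favoured a fall at R6 in GmNAC81-3 and a rise at R6 in BR16. The 2 calls in GmNAC81-3 and the Glyma.18G260000 call in BR16 have these directions, so their adjusted p are not free of the choice. The 2 falls called in BR16 run against it.

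**Figure D3:**
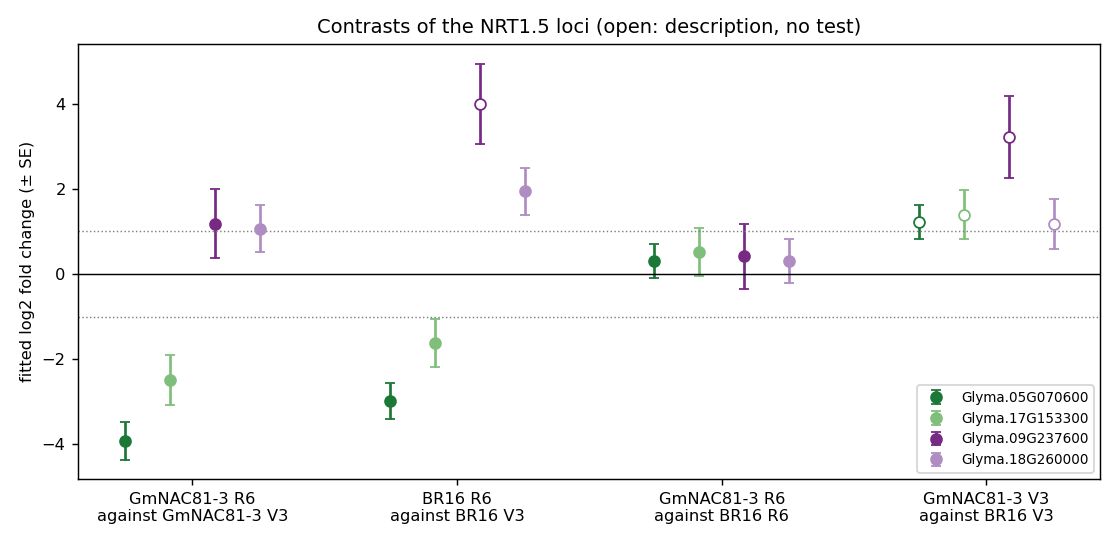
Fitted log2 fold change (vertical axis, bars are 1 SE) of the 4 loci in 4 contrasts. Filled points were tested and open points are descriptions, and dotted lines mark the size of 1 required for a call. Glyma.05G070600 and Glyma.17G153300 lie below -1 in both stage contrasts, and the 4 loci lie between 0.30 and 0.52 in GmNAC81-3 R6 against BR16 R6.

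The difference between the 2 stage effects, GmNAC81-3 minus BR16, was negative at each locus, with -2.81 (SE 1.23) for Glyma.09G237600, -0.93 (SE 0.57) for Glyma.05G070600, -0.88 (SE 0.79) for Glyma.17G153300 and -0.88 (SE 0.78) for Glyma.18G260000. It contains the V3 contrast with its sign turned, which chose the loci, and is given with no test. Without GmNAC81-3 V3 replicate 1 the value for Glyma.09G237600 was 0.09. With total counts in place of TMM it was -0.098 for Glyma.05G070600, -0.0082 for Glyma.17G153300 and 0.03 for Glyma.18G260000.

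GmNAC81-3 R6 against BR16 R6 uses none of the libraries on which the loci were chosen, and none of the 4 was called. None had an unadjusted p under 0.05 by edgeR's quasi-likelihood test. DESeq2 also called none, but it gave no adjusted p for Glyma.09G237600, which it therefore could not call. The log2 fold changes were 0.30 for Glyma.05G070600 (95% interval -0.59 to 1.18), 0.52 for Glyma.17G153300 (-0.71 to 1.75), 0.42 for Glyma.09G237600 (-1.24 to 2.08) and 0.31 for Glyma.18G260000 (-0.83 to 1.45). The libraries of the genotypes overlapped at each locus, where 13.7% of all tested loci did not overlap. Each interval reaches beyond 1, so a 2-fold higher level in GmNAC81-3 lies within it at each of the 4 loci. Without GmNAC81-3 R6 replicate 1, the library with the most counts of 3 of the 4 loci in its group, the value was -0.30 for Glyma.05G070600, 0.098 for Glyma.17G153300, 0.0011 for Glyma.09G237600 and 0.035 for Glyma.18G260000.

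At V3 the fitted log2 fold changes of GmNAC81-3 against BR16 were 3.23 (SE 0.97) for Glyma.09G237600, 1.40 (SE 0.57) for Glyma.17G153300, 1.23 (SE 0.40) for Glyma.05G070600 and 1.18 (SE 0.59) for Glyma.18G260000. These are values of the contrast that chose the loci. Libraries of GmNAC81-3 V3 and BR16 V3 were separate for Glyma.05G070600 and overlapped for the other 3, where 24% of all tested loci did not overlap.

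The V3 values of all 4 loci moved with the scaling of the libraries, by about the same amount. In CPM without a scaling factor, Glyma.05G070600 averaged 21.2 ± 4.65 in GmNAC81-3 V3 and 19.4 ± 7.80 in BR16 V3, and Glyma.17G153300 averaged 24.2 ± 12.9 in GmNAC81-3 V3 and 19.2 ± 4.34 in BR16 V3 (SD, n = 3 each). Fitted with total counts, the log2 fold change was 0.13 for Glyma.05G070600, 0.34 for Glyma.17G153300, 0.082 for Glyma.18G260000 and 2.14 for Glyma.09G237600. Total counts moved the median of all tested loci in this contrast to -1.08, against -0.04 with TMM, so relative to that median the 4 loci kept their place. DESeq2's size factors gave values like those of TMM.

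**Figure D4:**
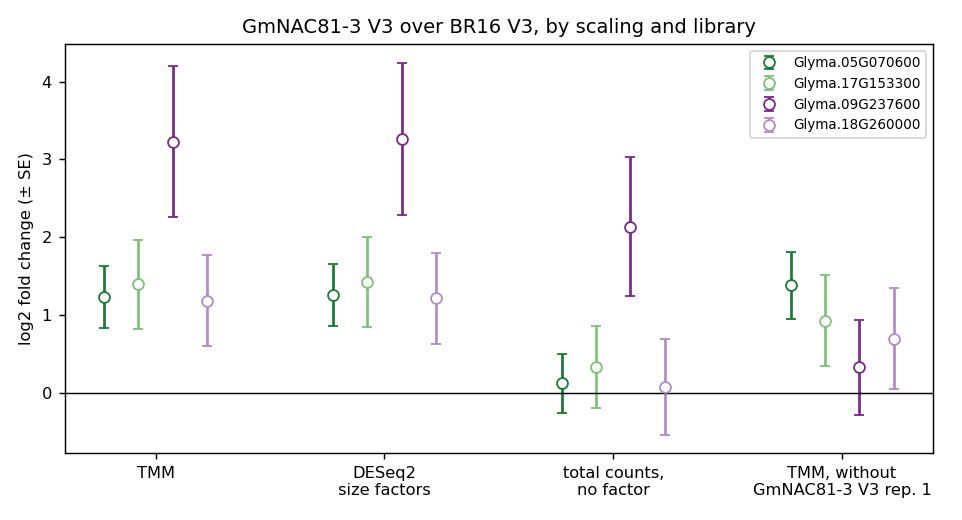
Log2 fold change of GmNAC81-3 V3 over BR16 V3 (vertical axis, bars are 1 SE) for the 4 loci under TMM, DESeq2's size factors, total counts with no factor, and TMM without GmNAC81-3 V3 replicate 1. Glyma.05G070600, Glyma.17G153300 and Glyma.18G260000 drop to between 0.082 and 0.34 with total counts, and Glyma.09G237600 lies at 2.14, and at 0.33 without that library.

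A measure that needs no library scaling is the share of the counts of the 4 loci that fell on Glyma.09G237600 and Glyma.18G260000, added after the data were seen. It was 23.9%, 19.1% and 42.9% in the GmNAC81-3 R6 libraries and 22.4%, 29.9% and 27.3% in BR16 R6, against 3.41%, 0.422% and 1.60% in GmNAC81-3 V3 and 0.580%, 2.21% and 0.953% in BR16 V3. Every R6 library lay above every V3 library. The pairs were formed by their stage levels in these same libraries, so this separation restates the grouping and is no further support for it. The genotypes overlapped at both stages. The means were 28.6% ± 12.6 in GmNAC81-3 R6, 26.5% ± 3.82 in BR16 R6, 1.81% ± 1.51 in GmNAC81-3 V3 and 1.25% ± 0.855 in BR16 V3 (SD, n = 3 each). The counts behind a share were 415 to 1291 in GmNAC81-3 R6, 795 to 1169 in BR16 R6, 1500 to 3048 in GmNAC81-3 V3 and 1725 to 2519 in BR16 V3. The highest share, 42.9% in GmNAC81-3 R6 replicate 3, went with the lowest count of Glyma.17G153300 in any library (131).

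**Figure D5:**
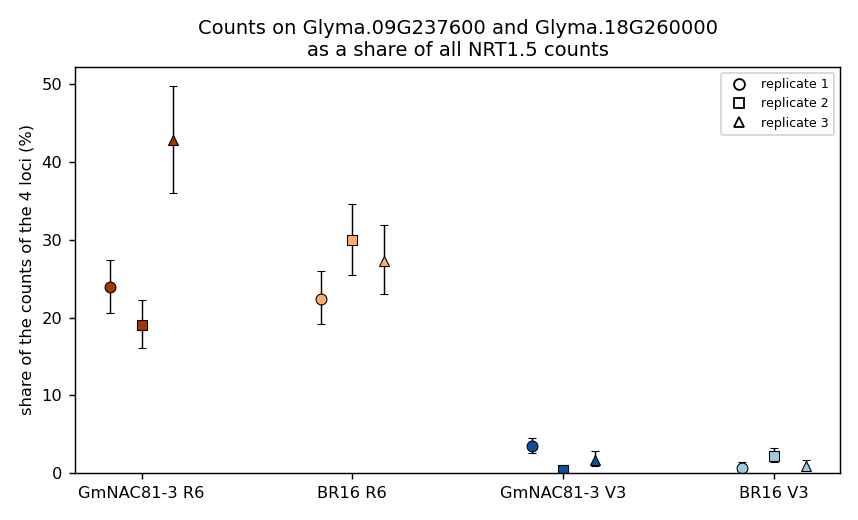
Share of the counts of the 4 NRT1.5 loci on Glyma.09G237600 and Glyma.18G260000 (%, vertical axis) in each library, by group, with 95% exact Clopper-Pearson intervals on fragments that cover counting error only. The R6 libraries lie between 19.1% and 42.9% and the V3 libraries between 0.422% and 3.41%.

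Ordered by mean CPM, Glyma.09G237600 and Glyma.18G260000 ran from GmNAC81-3 R6 over BR16 R6 and GmNAC81-3 V3 to BR16 V3, and the libraries of each pair of neighbouring groups overlapped at both loci. Glyma.05G070600 and Glyma.17G153300 ran from GmNAC81-3 V3 over BR16 V3 and GmNAC81-3 R6 to BR16 R6. For Glyma.05G070600 only the R6 groups overlapped among neighbours, and for Glyma.17G153300 each pair of neighbours did.

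Across the 12 libraries, Pearson's r of log2 CPM was 0.84 between Glyma.05G070600 and Glyma.17G153300 and 0.84 between Glyma.09G237600 and Glyma.18G260000, and between -0.67 and -0.37 for the 4 combinations across the pairs. Libraries of a stage share a sequencing set, so much of this is the contrast of stages. Of the tested loci, 87.9% had a lower r with Glyma.05G070600 than Glyma.17G153300 had. For Glyma.09G237600, 98.5% had a lower r than Glyma.18G260000. Within the 6 R6 libraries, the first pair had an r of 0.37 and the second 0.93, but Glyma.09G237600 and Glyma.05G070600 of different pairs also reached 0.85 there. Within the 6 V3 libraries the values were 0.59 for each of the pairs, below the 0.81 of Glyma.09G237600 with Glyma.17G153300, which are of different pairs. The pairs are thus a grouping by stage, and r within a stage did not follow it.

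The loci most like each member over the 12 libraries, by Pearson's r of log2 CPM, were Glyma.08G217600 for Glyma.05G070600 (0.988), Glyma.14G169700 for Glyma.17G153300 (0.949), Glyma.11G084000 for Glyma.09G237600 (0.969) and Glyma.12G129800 for Glyma.18G260000 (0.948). The next were Glyma.17G109700 and Glyma.09G277100 for Glyma.05G070600, Glyma.09G207700 and Glyma.03G172100 for Glyma.17G153300, Glyma.13G339000 and Glyma.16G150700 for Glyma.09G237600, and Glyma.09G191400 and Glyma.18G295900 for Glyma.18G260000, with r between 0.930 and 0.984. No member was among the 3 most alike of another, and none of these 12 loci has a description in the sources used here. The choice depends on the measure: with untransformed CPM only 1 of the 12 stayed, and with Spearman's rho none.

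Nitrate that reaches a leaf is reduced and assimilated through glutamine synthetase, for which the study names 5 loci, chosen there on the V3 contrast. In GmNAC81-3 R6 against GmNAC81-3 V3, 2 of the 5 were called higher and 3 lower, where 16.5% of all tested loci were called higher and 20.1% lower, with a median log2 fold change of -1.96. In BR16 R6 against BR16 V3, 2 were called higher and 2 lower, where 15.1% and 19.6% of all tested loci were, with a median of -1.19, and in GmNAC81-3 R6 against BR16 R6 none was called, with a median of 0.03. The median over all tested loci lay between -0.01 and 0.03 in these contrasts.

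The 2 glutamine synthetase loci with the highest mean CPM went opposite ways. Glyma.11G215500, named GLN1;1 after the cytosolic enzyme, had 303, 713 and 233 CPM in GmNAC81-3 R6 and 627, 408 and 441 CPM in BR16 R6, against 80.8, 181 and 112 CPM in GmNAC81-3 V3 and 53.8, 77.8 and 81.6 CPM in BR16 V3. It was called higher at R6 in both genotypes, with log2 fold changes of 1.74 (SE 0.44, adjusted p = 0.00708) in GmNAC81-3 and 2.79 (SE 0.46, adjusted p = 0.000527) in BR16 (edgeR quasi-likelihood, Benjamini-Hochberg). Glyma.15G102000, named GS2 after the chloroplast enzyme, had 137, 112 and 153 CPM in GmNAC81-3 R6 and 127, 170 and 97.0 CPM in BR16 R6, against 828, 465 and 366 CPM in GmNAC81-3 V3 and 502, 148 and 250 CPM in BR16 V3. It was called lower at R6, with -2.05 (SE 0.45, adjusted p = 0.00332) in GmNAC81-3 and -1.19 (SE 0.44, adjusted p = 0.0457) in BR16 (edgeR quasi-likelihood, Benjamini-Hochberg). In BR16 the adjusted p was close to the threshold and the libraries overlapped, with 170 CPM in an R6 library against 148 CPM in a V3 library. The glutamine synthetase calls were not examined under the alternatives or with a library left out.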

How the data were processed

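Values are the deposited counts, which the authors made per transcript model without normalization. The submitters' processing notes name HISAT2 2.1.0 and featureCounts, whereas the study's methods name Sickle, Bowtie 2 and Rsubread with the Wm82.a2.v1 assembly, and the strand setting is not given in the sources used here. Low counts were mostly even (75.0% to 86.1% of counts under 50), so both reads of a pair may have been counted, and intervals were computed on count/2.

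Counts of 84782 models were summed to 52660 loci, with the entry of the transgene counted under GmNAC81. In R 4.3.3, edgeR 4.0.16 was run with filterByExpr, TMM and 4 group means over 12 libraries. The quasi-likelihood test was adjusted by Benjamini-Hochberg over 39443 loci, and SE was derived from the F statistic. DESeq2 1.42.0 was an alternative. The procedure was tested on simulated data. No column of another sample was used.

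The members, lists and tests were chosen with earlier results of these data known. Named were the members, GmNAC81, the 3 most similar loci per member, and the 2 glutamine synthetase loci with the highest mean CPM. Rubisco activase was added after the data were seen. Lists by gene description, and marker lists for mesophyll, xylem and phloem, could not be made, because the RefSeq table paired none of the loci, so a list of 5 glutamine synthetase loci was used. Exact tests were not used, since 3 libraries against 3 cannot give a two-sided p below 0.1.

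Replicate numbers were checked for pairing by correlating deviations from the group means. Same-numbered libraries correlated at 0.129 to 0.404 between GmNAC81-3 V3 and BR16 V3. The range was -0.366 to -0.119 between GmNAC81-3 R6 and BR16 R6. Between the stages it was -0.299 to 0.063 in BR16 and -0.025 to 0.115 in GmNAC81-3.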

Additional observations from a re-analysis of the deposited data

How the results depend on the processing

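Total counts in place of TMM gave 4 calls instead of 2 in GmNAC81-3 R6 against GmNAC81-3 V3, with 2.19 for Glyma.09G237600 and 2.03 for Glyma.18G260000 (adjusted p = 0.0253 and 0.0107, edgeR quasi-likelihood, Benjamini-Hochberg), where the median of all loci moved to 1.07. They gave -1.41 for Glyma.17G153300 in BR16 R6 against BR16 V3, and V3 values of 0.13 for Glyma.05G070600, 0.34 for Glyma.17G153300 and 0.082 for Glyma.18G260000. An adjusted p of at most 0.01 left 1 call in BR16 R6 against BR16 V3, with Glyma.17G153300 (-1.62) and Glyma.18G260000 (1.94) no longer called. Of the 3 loci most like each member, untransformed CPM kept 1 for Glyma.18G260000 and 0 for the other members, and Spearman's rho kept 0 for each.

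When single libraries were left out, the number called ran from 2 to 3 in GmNAC81-3 R6 against GmNAC81-3 V3, from 1 (without BR16 V3 replicate 3) to 3 in BR16 R6 against BR16 V3 and was 0 at R6. In BR16 R6 against BR16 V3, Glyma.17G153300 ran from -1.84 to -1.45 and Glyma.18G260000 from 1.54 to 2.61. Glyma.09G237600 ran from 0.66 to 4.09 in GmNAC81-3 R6 against GmNAC81-3 V3 and from 0.33 to 3.77 at V3, and Glyma.05G070600 from -0.30 to 0.54 at R6. The cause was not tested.

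With the replicate number as a block, 2 loci were called in GmNAC81-3 R6 against GmNAC81-3 V3 and 3 of 3 in BR16 R6 against BR16 V3, and none at R6, so the pairing changed no call. Of the tested values of single loci, 90 of 95 under the other alternatives, and 123 of 132 with a library left out, kept direction and side of the threshold, while 3 and 7 lost a call, 2 and 1 gained one, and 1 value with a library left out turned its sign. Many of these fits had little room to change. A locus with 1 transcript model was refitted on the same counts, and dropping the limit on fold change could only add calls. Many left-out libraries belonged to neither group of a contrast. The numbers are thus no measure of stability on their own. The 3 calls in BR16 R6 against BR16 V3 remained 3 in 6 of the 12 fits with a library left out, and were 2 with total counts. Of the fits that left out a BR16 library, only that without BR16 V3 replicate 2 kept all 3. At least 10 counts in every library removed Glyma.09G237600 and Glyma.18G260000, and fits of the V3 groups alone removed Glyma.09G237600. The block on the V3 libraries alone was added after the data were seen.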

Other observations

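The loci whose numbers neighbour those of the 4 NRT1.5 loci were examined after the data were seen, and 7 of 8 were tested. None was called in both genotypes. Over all tested loci, 16.5% were called higher and 20.1% lower at R6 in GmNAC81-3, and 15.1% and 19.6% in BR16. With 7 loci no difference from these shares can be read. Glyma.17G153200, beside Glyma.17G153300, was called lower at R6 in GmNAC81-3 (log2 fold change -1.66, edgeR quasi-likelihood with Benjamini-Hochberg, adjusted p = 0.00409) and had -0.83 in BR16 (edgeR quasi-likelihood with Benjamini-Hochberg, adjusted p = 0.0886). On the other side, Glyma.17G153400 had -0.72 in GmNAC81-3 (adjusted p = 0.497) and was called lower in BR16 (-2.34, adjusted p = 0.0151; edgeR quasi-likelihood with Benjamini-Hochberg). Glyma.18G260100, beside Glyma.18G260000, was called lower at R6 in BR16 (-2.16, edgeR quasi-likelihood with Benjamini-Hochberg, adjusted p = 0.000961), where Glyma.18G260000 was called higher. Glyma.09G237500, beside Glyma.09G237600, had 0 to 2 counts per library and was not tested.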
